A study of Caenorhabditis elegans with 2 samples.

Results

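The genes described here are the glutathione S-transferases of Caenorhabditis elegans, and the measurement was where SKN-1, a transcription factor tagged with eGFP, sat near their promoters. Members were all protein-coding genes of the WBcel235 annotation whose symbol is gst- or gsto- followed by a number. This rule gave 47 of 19973 nuclear protein-coding genes, 44 of them gst and 3 gsto genes. The rule itself uses no binding value, but the family was chosen with earlier results of these data known. The data came from chromatin immunoprecipitation and sequencing (ChIP-seq) of whole larvae in the third larval stage, of mixed sex by the label. The strain was OP342, with the mutation unc-119(ed3) and the integrated transgene wgIs342, and both samples were of this strain. They formed 1 group of 2 biological replicates, with no second genotype, stage or treatment analysed here. Whole animals were used, so a summit of low signal from strong binding in few cells and from weak binding in many cells cannot be told apart. Read depth is unknown from the peak lists, and the sources used here do not name the isoform of SKN-1 in the transgene.

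Glutathione S-transferases join the tripeptide glutathione to reactive or foreign compounds, a main step of detoxification, and nematodes have many gene copies of a type of their own. SKN-1 is the worm relative of the mammalian Nrf factors, which switch on such detoxification genes under oxidative stress, and a gst-4 reporter is widely used to read its activity. SKN-1 is known to bind DNA as a monomer at a short consensus. Here that consensus was searched on both strands in its 8 forms, AATATCAT, AATGTCAT, ATTATCAT, ATTGTCAT, TATATCAT, TATGTCAT, TTTATCAT and TTTGTCAT.

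A member was counted as bound, or having a promoter peak, when the summit of a peak that passed the IDR threshold lay no more than 1000 bp upstream or 200 bp downstream of an annotated 5′ end of the gene. IDR is the irreproducible discovery rate, by which the authors kept 1778 peaks. Of the 47 members, 11 had a promoter peak (23.4%), against 7.75% of all protein-coding genes. These 11 genes had 10 summits, because gst-2 and gst-4 shared 1. The sequences around the 7 summits with the consensus within 50 bp are shown because they share a site, compared next. They run from 55 bp before to 55 bp after the summit, read 5′ to 3′ on the strand of the member, from the RefSeq sequence of WBcel235 (ce11), with the consensus in capitals:
gst-7 (chrII:4881902-4882012, plus strand): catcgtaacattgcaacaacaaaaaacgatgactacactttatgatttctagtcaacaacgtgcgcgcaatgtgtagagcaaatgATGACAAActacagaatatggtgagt
gst-1 (chrIII:9059062-9059172, plus strand): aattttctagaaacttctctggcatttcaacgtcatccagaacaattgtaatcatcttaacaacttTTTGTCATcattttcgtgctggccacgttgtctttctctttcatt
gst-16 (chrII:13624469-13624579, minus strand): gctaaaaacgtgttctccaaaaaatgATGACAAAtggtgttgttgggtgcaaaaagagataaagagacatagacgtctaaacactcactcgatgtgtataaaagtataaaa
gst-13 (chrII:9231371-9231481, plus strand): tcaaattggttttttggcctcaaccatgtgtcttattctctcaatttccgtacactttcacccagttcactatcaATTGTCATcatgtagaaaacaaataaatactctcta
gst-6 (chrII:4879753-4879863, plus strand): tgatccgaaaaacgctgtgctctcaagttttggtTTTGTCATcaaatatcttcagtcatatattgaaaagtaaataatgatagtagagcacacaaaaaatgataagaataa
gst-5 (chrII:10950208-10950318, plus strand): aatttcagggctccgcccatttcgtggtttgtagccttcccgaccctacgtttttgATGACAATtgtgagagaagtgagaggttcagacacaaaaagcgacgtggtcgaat
gst-4 (chrIV:10142138-10142248, plus strand): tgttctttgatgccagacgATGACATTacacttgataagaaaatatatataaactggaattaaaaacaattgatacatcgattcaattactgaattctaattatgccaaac

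Read on the strand of the consensus with the next 3 bases, the sites of gst-7, gst-1 and gst-16 were all TTTGTCATCAT. The site at gst-13 was ATTGTCATCAT, and those of gst-6 and gst-5 were TTTGTCATCAA and ATTGTCATCAA. The nearest site in the shared gst-2 and gst-4 region was AATGTCATCGT. All 7 sites thus contained GTCATC. Of the 165 consensus sites within 50 bp of any promoter summit in the genome, 74 (44.8%) did so. The gst-2 and gst-4 region held a second site farther out, 96 bp from the pooled summit, with the same bases as at gst-7, gst-1 and gst-16 (chrIV:10142082-10142112, printed with the other extended sites later on). The replicate 2 summit lay on the side of this site, at -80 bp from the pooled summit. The replicate 1 summit lay on the same side at -38 bp, closer to the nearest site, centred at -32.5 bp. The summits of gst-27, gst-42 and gst-38 had no consensus within 50 bp. Farther out, gst-38 had matches centred at -67.5 and 79.5 bp from its summit, the latter also containing GTCATC. The nearest match at gst-42 was centred at 107.5 bp, and gst-27 had none within 300 bp of its summit. The sequences around these summits, trimmed at gst-42 to keep annotated untranslated sequence short, are shown for contrast and stop short of those matches:
gst-27 (chrII:15166018-15166128, minus strand): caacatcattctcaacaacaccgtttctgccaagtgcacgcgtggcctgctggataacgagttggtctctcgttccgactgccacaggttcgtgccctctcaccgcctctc
gst-42 (chrX:11727907-11728010, minus strand): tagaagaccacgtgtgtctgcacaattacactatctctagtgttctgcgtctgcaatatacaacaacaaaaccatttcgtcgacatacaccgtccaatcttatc
gst-38 (chrV:15916051-15916161, minus strand): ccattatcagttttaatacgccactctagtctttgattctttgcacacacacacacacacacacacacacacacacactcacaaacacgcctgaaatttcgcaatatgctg

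The strongest summit of the family lay at gst-7. Its signal value, a score on the authors' own scale that ranks peaks only within a list, was 106 in the pooled list, which placed it at rank 66 of the 1778 thresholded peaks. In the list of replicate 1 it was 33.1 (rank 60) and in that of replicate 2 it was 75.0 (rank 69), so both replicates placed it alike. The gst-1 summit had a pooled value of 86.4 (rank 110), with 18.2 (rank 319) in replicate 1 and 65.1 (rank 103) in replicate 2. Its product resembles the pi class of mammalian transferases. The gst-16 summit followed with 82.5 (rank 119), and 23.98 (rank 161) and 60.6 (rank 122) in the replicates. These 3 summits, all with the same site, also had the narrowest peaks, of 140, 122 and 120 bp (chrII:4881916-4882055, chrIII:9059083-9059204 and chrII:13624483-13624602). The peaks at the remaining family summits were 330 bp wide, among them that of gst-2 and gst-4, which holds the same site farther from its summit.

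A middle group consisted of gst-13, gst-6, gst-5 and gst-27, all on chromosome II. Their pooled signal values were 56.7, 56.02, 42.3 and 40.02, and their ranks 322, 334, 699 and 786. The gst-13 summit had 10.7 (rank 1115) in replicate 1 and 41.96 (rank 338) in replicate 2. That of gst-6 had 11.2 (rank 1003) and 46.1 (rank 254), so both stood higher in rank in replicate 2. The gst-5 summit had 14.1 (rank 576) and 30.7 (rank 731), and that of gst-27 had 9.06 (rank 1623) and 31.1 (rank 714). GST-5 is known to act on the lipid peroxidation product 4-hydroxynonenal. The gst-27 summit differed from the others in place as well as sequence. It lay 342 bp upstream of its gene and 45 bp from the snoRNA gene Y53F4B.48, so it cannot be assigned to gst-27 alone. The nearest noncoding gene of every other bound member lay 1590 bp or more from the summit.

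The weakest bound members were gst-2 and gst-4, gst-42 and gst-38. The summit between gst-2 and gst-4, which are transcribed away from each other, had a pooled value of 35.3 (rank 1026), and it also lay in the promoter window of dhs-12, a short-chain dehydrogenase gene. It had 6.64 (rank 3170) in replicate 1 and 26.1 (rank 1046) in replicate 2, so it was in the upper 1778 lines of replicate 2 only. It lay 32 bp upstream of gst-4 and 132 bp upstream of gst-2, so it cannot be assigned to either gene alone. The gst-42 summit (31.6, rank 1277) also fell in the window of D1053.2. GST-42 is of the zeta class, which works in the breakdown of tyrosine. Its summit had 10.9 (rank 1055) in replicate 1 and 20.1 (rank 1798) in replicate 2. The gst-38 summit (29.04, rank 1528) had 13.1 (rank 691) in replicate 1 and 15.2 (rank 2958) in replicate 2. The order of the replicates was thus opposite to that at gst-2 and gst-4.

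**Figure D1:**
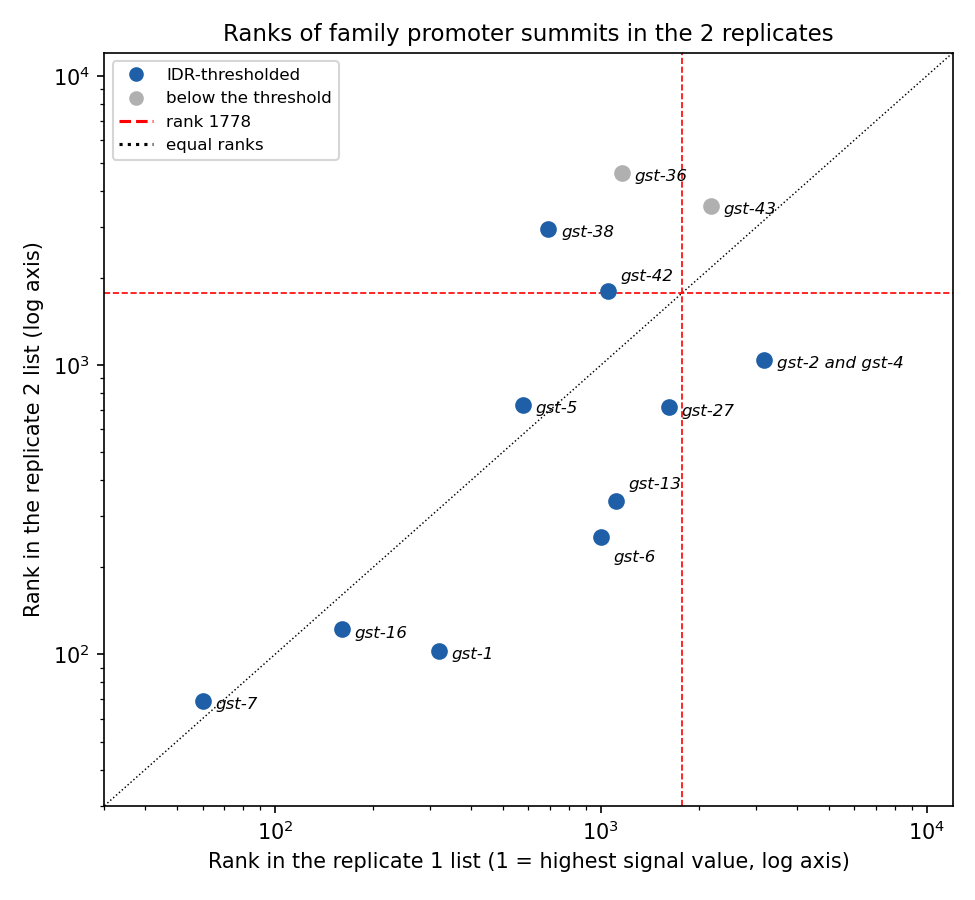
Rank of each family promoter summit in the replicate 1 list (x) and the replicate 2 list (y), both log axes, where rank 1 has the highest signal value. Blue points passed the IDR threshold and grey points (gst-36, gst-43) did not. The dashed lines mark rank 1778 and the dotted line equal ranks. The summit of gst-7 sits near the line of equal ranks, gst-38 above it and the gst-2 and gst-4 summit below it.

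All 10 family summits were matched, at any rank, within 100 bp in each replicate list, as were 86.7% of all 1171 promoter summits. The thresholded peaks come from these lists, so a match is partly built in. In both replicates 7 of the 10 were among the 1778 highest lines, against 48.2% of all promoter summits. Taken from the 1778 highest lines of each replicate alone, 11 members had a promoter summit in replicate 1 (background 6.81% of all genes) and 9 in replicate 2 (background 7.67%). Of each of these counts, 9 also had a thresholded peak. The replicates differed at the lower end. Without replicate 1, gst-38 and gst-42 were lost. Without replicate 2, gst-2 and gst-4 were lost, and gst-36 and gst-40 (the latter named after its value was seen) were gained.

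The median pooled signal value of the 10 summits was 49.1, against 38.3 for all promoter summits, and 7 of the 10 were among the 889 highest of the thresholded peaks, as were 611 of the 1171. The family summits lay close to the 5′ ends, from 19 bp (gst-42) to 342 bp (gst-27) upstream, with a median of -83.5 bp against -198 bp for all promoter summits. All 10 were in intergenic sequence. These are descriptions, since no test of the family against other genes was run. In C. elegans many annotated 5′ ends are sites of trans-splicing, so these distances need not be to the start of transcription.

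**Figure D2:**
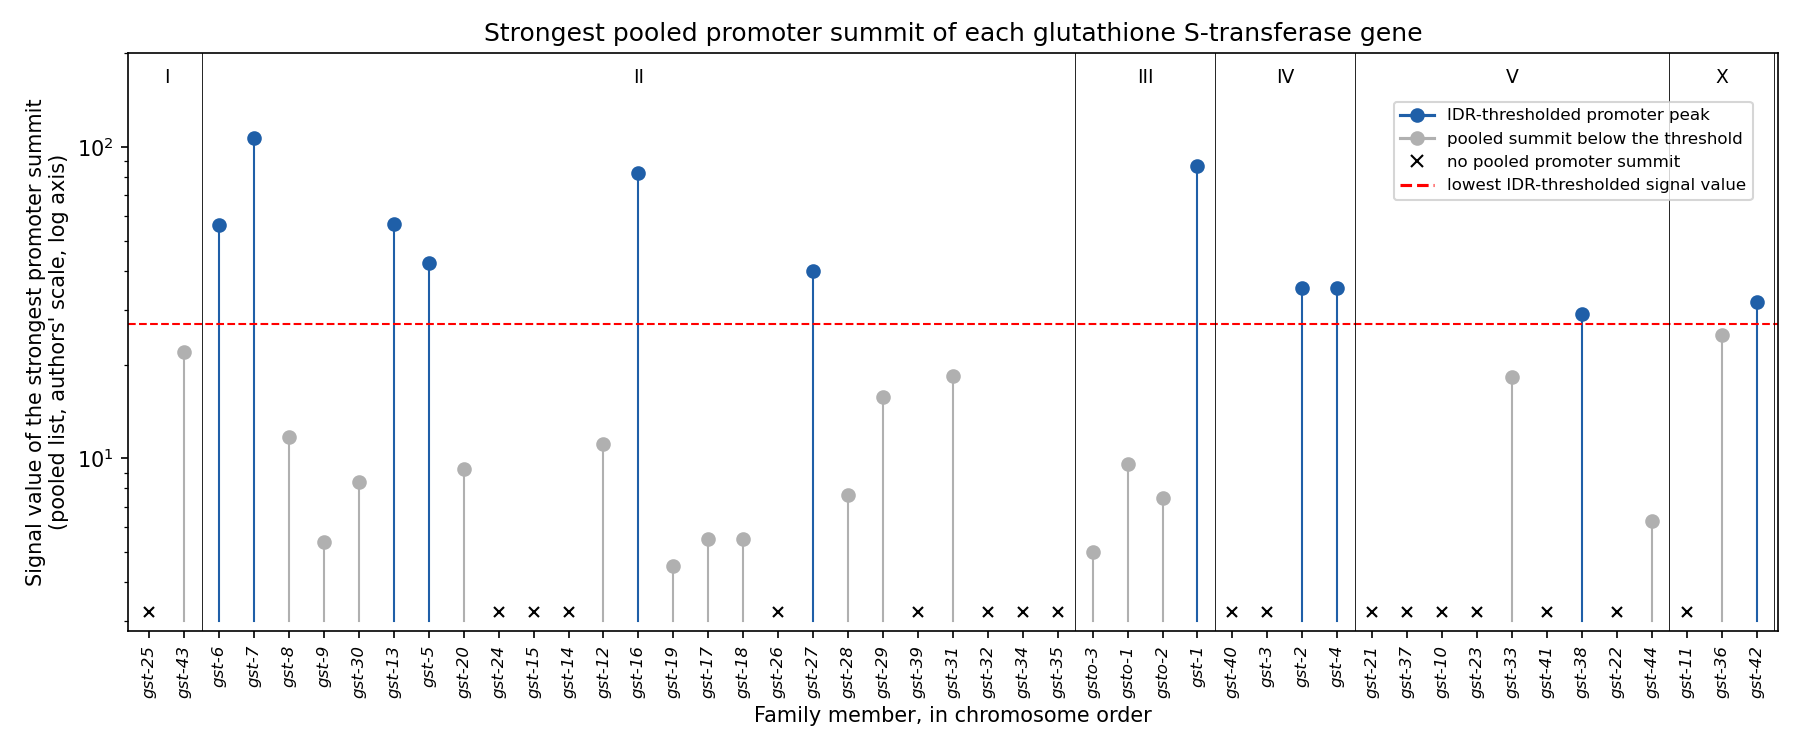
Signal value of the strongest pooled promoter summit of each of the 47 members (y, authors' scale, log axis), in chromosome order (x, with chromosome names above). Blue members had an IDR-thresholded promoter peak, grey members a pooled summit below it, and crosses mark members with no pooled promoter summit. The dashed line is the lowest thresholded signal value, 26.9. The highest points are gst-7, gst-1 and gst-16.

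The values ran without a wide gap across the threshold. The thresholded list ended at a signal value of 26.9. The lowest bound member, gst-38, had 29.04, and the highest member outside, gst-36, had 24.9 (pooled rank 2051). The gst-36 summit lay 156 bp upstream of its gene and, like the strongest members, held a consensus, 39.5 bp from the summit, here of the form TTTATCAT. It had 10.5 (rank 1160) in replicate 1 and 11.6 (rank 4633) in replicate 2. The next was gst-43, a relative of gst-42 and likewise of the zeta class, with 21.97 (ranks 2171 and 3555 in the replicates). Then came gst-31 with 18.3, gst-33 with 18.3 and gst-29 with 15.7, none of which had a replicate 1 summit within 100 bp. Their replicate 2 ranks were 3581, 3988 and 4573. The gst-33 summit was the only one of these 5 inside an exon. None of gst-43, gst-31, gst-33 and gst-29 had a consensus within 50 bp of the summit. The gst-43 summit also fell in the promoter window of copa-1, and that of gst-31 in the window of Y53F4B.36.

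At any rank, 29 members had a promoter summit in the pooled list (61.7%, background 45.8%). In replicate 1 this was 23 members (48.9%, background 36.3%) and in replicate 2 it was 33 (70.2%, background 45.4%). The lists hold peaks together with background, so a line at low rank need not be a binding site. The 18 unbound members with a pooled summit had signal values of 4.50 to 24.9, with a median of 8.82. The 3 gsto genes, named for the omega class, were among them, with gsto-1 at 9.56, gsto-2 at 7.47 and gsto-3 at 5.002. So was gst-44 (6.30), whose product was closest to that of gsto-2 (62.6% identical) and which is named after its value was seen. No promoter summit in the pooled or either replicate list was found for 9 members, which were gst-10, gst-11, gst-15, gst-23, gst-24, gst-34, gst-37, gst-39 and gst-41. Of these, gst-10 is known, like gst-5, for acting on 4-hydroxynonenal. Chromosome V held 9 members, of which 1, gst-38, was bound (11.1%). Chromosome II held 25 members, of which 6 were bound (24.0%). The share of bound genes over all protein-coding genes was 7.75%.

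**Figure D3:**
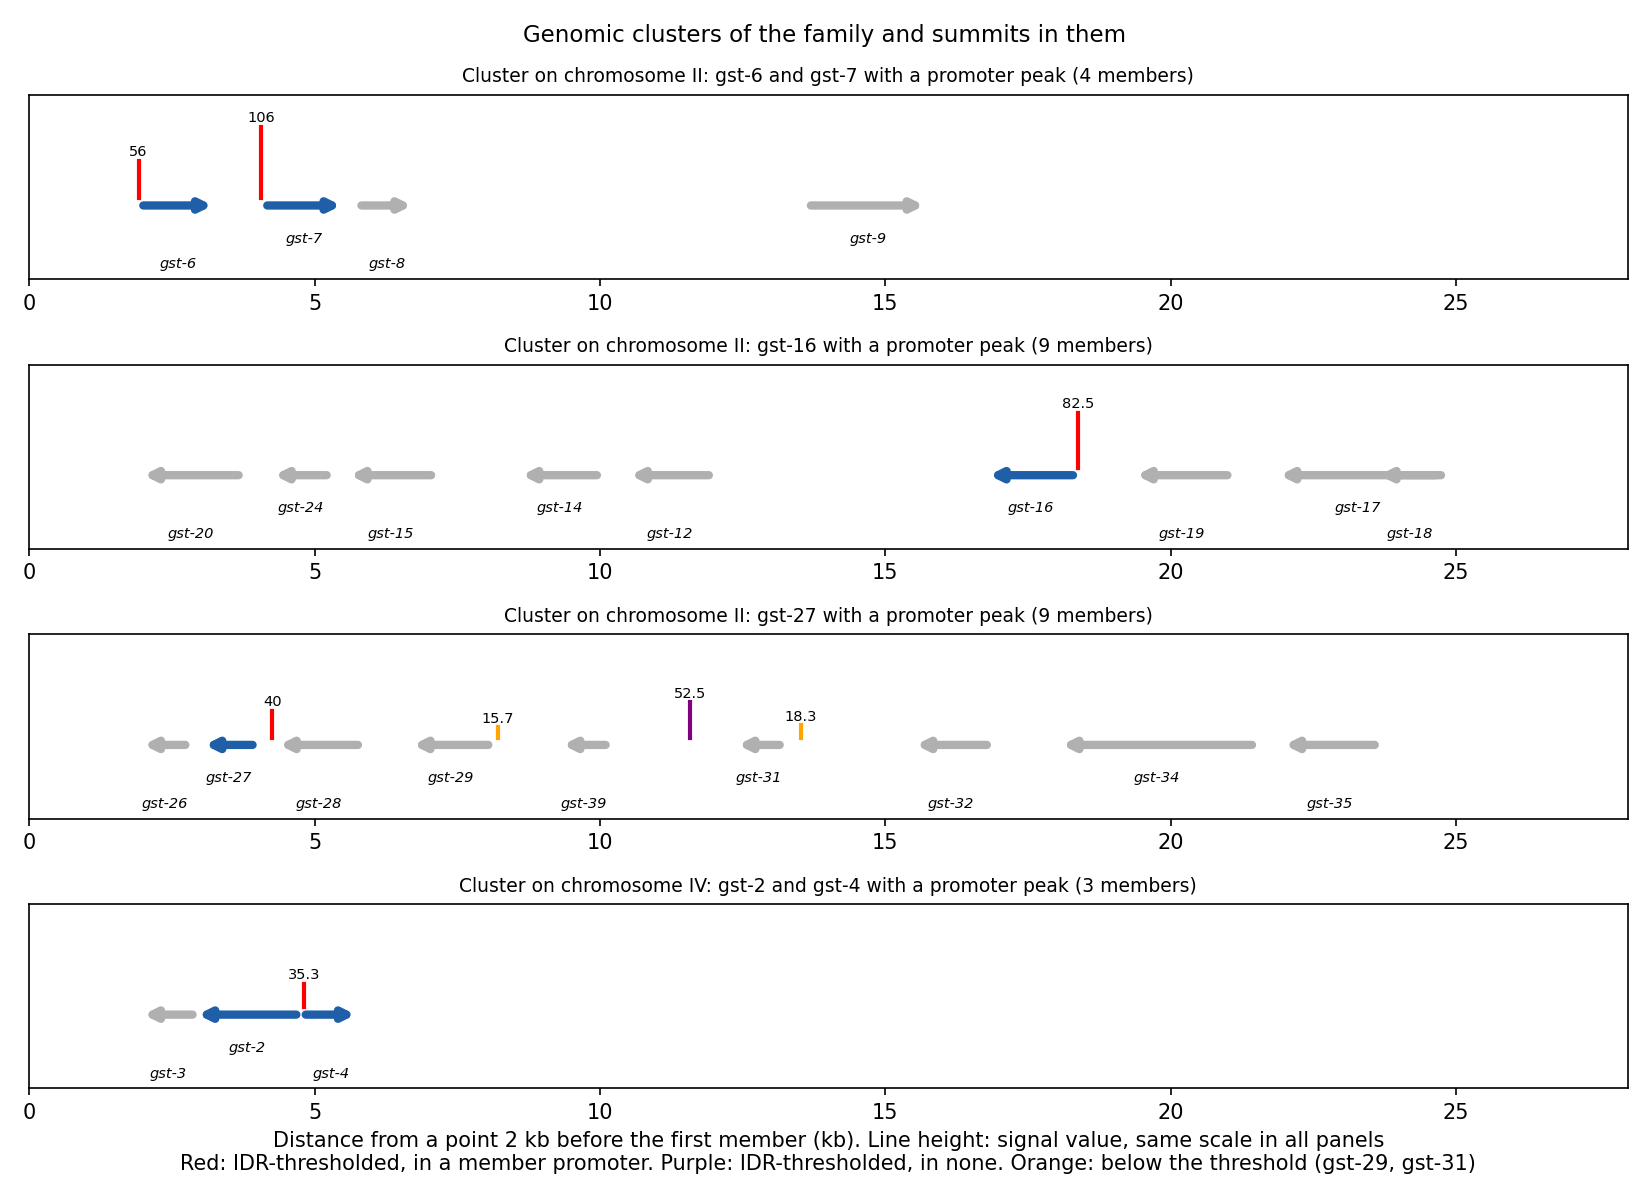
The 4 genomic clusters of the family, with members drawn as arrows in the direction of transcription and distance in kb (x). Blue members had a promoter peak and grey members did not. Vertical lines are summits with their signal value as height and number, red for thresholded summits in a member promoter, purple for a thresholded summit in none, and orange for the gst-29 and gst-31 summits below the threshold. Weaker summits are not drawn. Genes that are not members are not drawn. In the 2 clusters of 9 members, a single red line stands at gst-16 and at gst-27, and the purple line (52.5) lies between gst-39 and gst-31.

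Many members stand in tandem arrays. With members within 10 kb of each other joined, 25 members formed 4 clusters. Of these 25, 6 were bound (24.0%), against 5 of the 22 that stood alone (22.7%). The share over all protein-coding genes was 7.75%, and 1 bound gene of 9, as in 2 clusters below, is not far from it. In a cluster of 4 genes on one strand of chromosome II, gst-6 and gst-7 were bound, each by its own summit, and gst-8 and gst-9 were not. In a cluster of 9 genes over 22734 bp (chrII:13608154-13630887), 1 gene, gst-16, was bound. The highest pooled value among the other members was 11.1 at gst-12. In a second cluster of 9 genes over 21573 bp (chrII:15163817-15185389), 1 gene, gst-27, was bound. There gst-31, gst-29 and gst-28 (7.65) had values below the threshold, and gst-26, gst-39, gst-32, gst-34 and gst-35 had no pooled promoter summit. On chromosome IV, gst-3 lay next to gst-2 and had no pooled summit. With a window of 2000 bp upstream, gst-3, gst-8 and gst-26 counted as bound through the summits of their neighbours gst-4, gst-7 and gst-27, which lay 1950, 1755 and 1520 bp from their 5′ ends, and gst-39 through a summit 1481 bp away. That summit (signal value 52.5, rank 417) lay inside the cluster and in no member's promoter window, and was higher than the one at gst-27. Clustered members named in this paragraph outside the bound and near-threshold genes were chosen after their values were seen.

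Members of a cluster encode related proteins, whether bound or not. Protein identity within clusters had a median of 61.3% over the 22 pairs with 1 bound gene and 57.3% over the 57 pairs with none. The product of gst-7 was 85.4% identical to that of its unbound neighbour gst-8, and the product of gst-27 was 85.2% identical to that of its unbound neighbour gst-26. The product of gst-16 was most like that of gst-14 (66.3%), an unbound member of its cluster. Among members outside the clusters, gst-5 and gst-38, both bound, were each other's closest relatives (66.7%). The closest relatives of gst-1 were gst-23 (69.2%) and gst-25, whose own closest relative was gst-1 (67.8%), and neither was bound. Over all 47 members, the most similar member was bound for 3 of the 11 bound genes and for 12 of the 36 unbound genes. Identity between pairs of bound members had a median of 39.8%, against 36.4% over all 1081 pairs. The sources used here do not say how reads that fit several such copies were placed, and its part in these peaks was not tested.

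The consensus was common upstream of the family as a whole. Of the 10 family summits, 7 (70.0%) had a consensus centre within 50 bp, against 146 of 1171 promoter summits (12.5%). The centres lay from 4.5 bp (gst-5) to 33.5 bp (gst-7) from the summit. In the 300 bp upstream of the most upstream 5′ end, a consensus was found for 9 of 11 bound members (81.8%) and 17 of 36 unbound members (47.2%). The share over all protein-coding genes was 16.4%, and 19.5% over all genes with a promoter peak. In the window of 1200 bp the shares were 100% of bound members, 69.4% of unbound members and 48.9% of all genes. The hexamer TGATAA, of the type bound by GATA factors, was found in the 300 bp upstream of 45.5% of bound and 27.8% of unbound members, against 30.8% of all genes. The antioxidant response element core TGACNNNGC, through which Nrf factors act in mammals, was found in that window in none of the 47 members and in 4.70% of all genes. In the window of 1200 bp it was found in 10 of the 47 members (21.3%), 9 of them unbound, against 19.3% of all genes. TGATAA was found there in 100% of bound members, 63.9% of unbound members and 72.0% of all genes. Within 50 bp of the summit, 4 of the 10 family summits had a TGATAA (40.0%), those of gst-6, gst-4, gst-42 and gst-38, against 140 of the 1171 promoter summits (11.96%). So gst-42 and gst-38, which had no consensus there, had this hexamer, and gst-27 had neither. The hexamer centres lay near the edge of that distance at gst-6 and gst-42 (both 46.5 bp) and gst-38 (-49.5 bp). At gst-4 the centre lay at -20.5 bp. The searches covered both strands. The forms TTTATCAT and ATTATCAT of the consensus hold TGATAA whole on the other strand, so such a match counts as both motifs, as at the gst-36 summit. None of the 4 TGATAA matches counted at the family summits shared its place with a consensus. A missing match says only that these letters are not in the window.

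**Figure D4:**
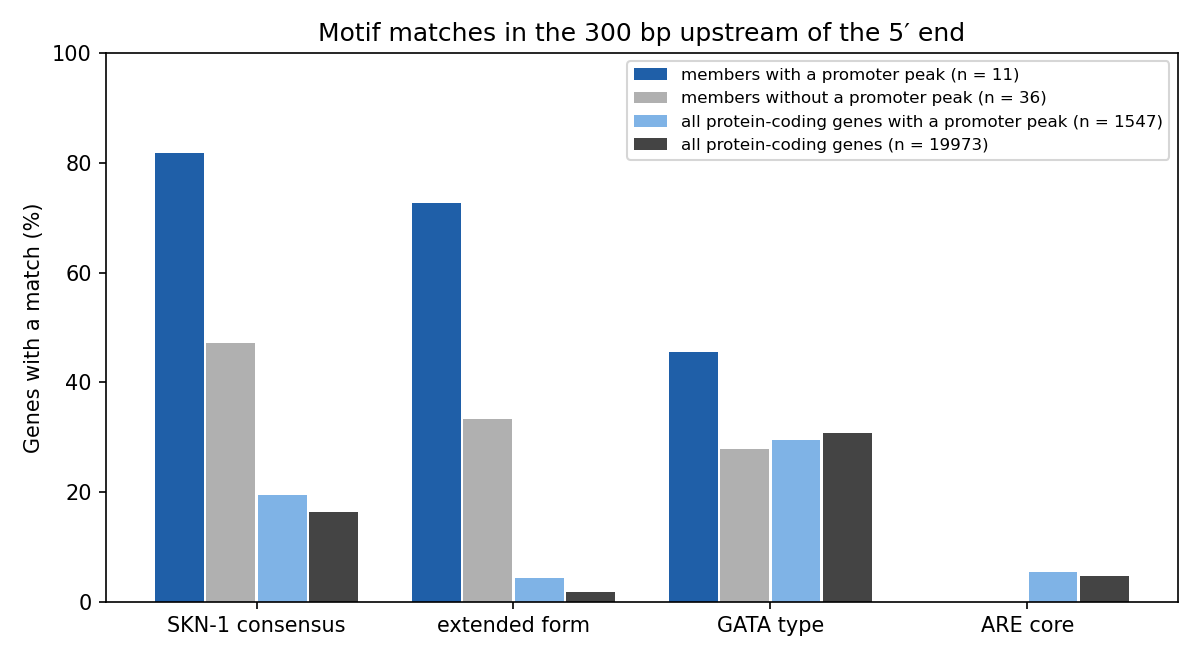
Share of genes (y, percent) with at least 1 match in the 300 bp upstream of the most upstream 5′ end, for the SKN-1 consensus, its extended form with GTCATC, the GATA type TGATAA and the antioxidant response element (ARE) core. Bars are the 11 bound members, 36 unbound members, 1547 genes with a promoter peak and all 19973 genes, each a single count with no error bar. For the consensus, unbound members (47.2%) stand between bound members (81.8%) and all genes (16.4%).

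Unbound members also carried an extended form of the site, mostly with no summit at it. This form, AATGTCATC, ATTGTCATC, TATGTCATC or TTTGTCATC, always contains a consensus match and was chosen after the bound sites were seen, so its frequency at bound members is a description. It was found in the 300 bp upstream of 8 of 11 bound members (72.7%) and 12 of 36 unbound members (33.3%), against 1.75% of all genes. Without regard to peaks, that is 20 of 47 members (42.6%). At bound members 8 of 9 distinct sites lay within 100 bp of a thresholded summit. Both sites between gst-2 and gst-4 were counted, though they lay at 1 shared summit, the farther one 96 bp from it. The exception among the 9 was a second site of gst-5, centred 238 bp upstream, which had no summit near it in any list. At unbound members none of 12 distinct sites had a thresholded summit within 100 bp, which the definition of bound fixes in part. A pooled summit at any rank lay within 100 bp of 1 of these 12, at gst-30 (signal value 8.39, rank 12130). Of the unbound members with such a site, gst-10, gst-34, gst-37 and gst-39 had no promoter summit in any list. Over all members, bound or not, 8 of 21 distinct sites (38.1%) had a thresholded summit and 9 (42.9%) a pooled summit. For genes outside the family, also bound or not, 41 of 326 such sites (12.6%) had a thresholded summit and 91 (27.9%) a pooled summit. The form was chosen from bound sites of the family, so this difference is a description.

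Sites of bound and unbound members with alike bases are shown to compare their surroundings. They are given with 11 bases to either side on the strand of the member, with the extended site in capitals, read as GATGACAAA or GATGACAAT where it lies on the other strand:
gst-7 (chrII:4881975-4882005): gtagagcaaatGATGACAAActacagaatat
gst-8 (chrII:4883489-4883519): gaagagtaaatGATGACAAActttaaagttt
gst-16 (chrII:13624535-13624565): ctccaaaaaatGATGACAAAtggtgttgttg
gst-4 (chrIV:10142082-10142112): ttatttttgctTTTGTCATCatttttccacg
gst-20 (chrII:13609975-13610005): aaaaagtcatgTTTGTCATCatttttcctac
gst-1 (chrIII:9059117-9059147): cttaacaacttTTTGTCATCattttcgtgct
gsto-2 (chrIII:8554590-8554620): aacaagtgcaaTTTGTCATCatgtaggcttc
gst-30 (chrII:4935151-4935181): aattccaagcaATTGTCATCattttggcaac
gst-10 (chrV:2561632-2561662): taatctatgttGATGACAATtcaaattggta

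The gst-7 site, centred 72 bp upstream of the 5′ end, lay 33 bp from the strongest summit of the family. The gst-8 site held the same 9 bases 208 bp upstream, and no list had a summit within 100 bp of it. The same held for the sites of gst-20, gsto-2 and gst-10, centred 166, 167 and 43 bp upstream. Sites at bound members were centred 7 to 238 bp upstream (median 99) and those at unbound members 43 to 270 bp upstream (median 162), so the ranges overlapped. For these values a site shared by neighbouring genes was entered once for each gene, which gave 11 entries at bound and 13 at unbound members. The site at 238 bp was that of gst-5 with no summit near it. The unbound members of these pairs were chosen after their sites were seen. Differences between bound and unbound members were not tested, since tandem copies are not independent.

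**Figure D5:**
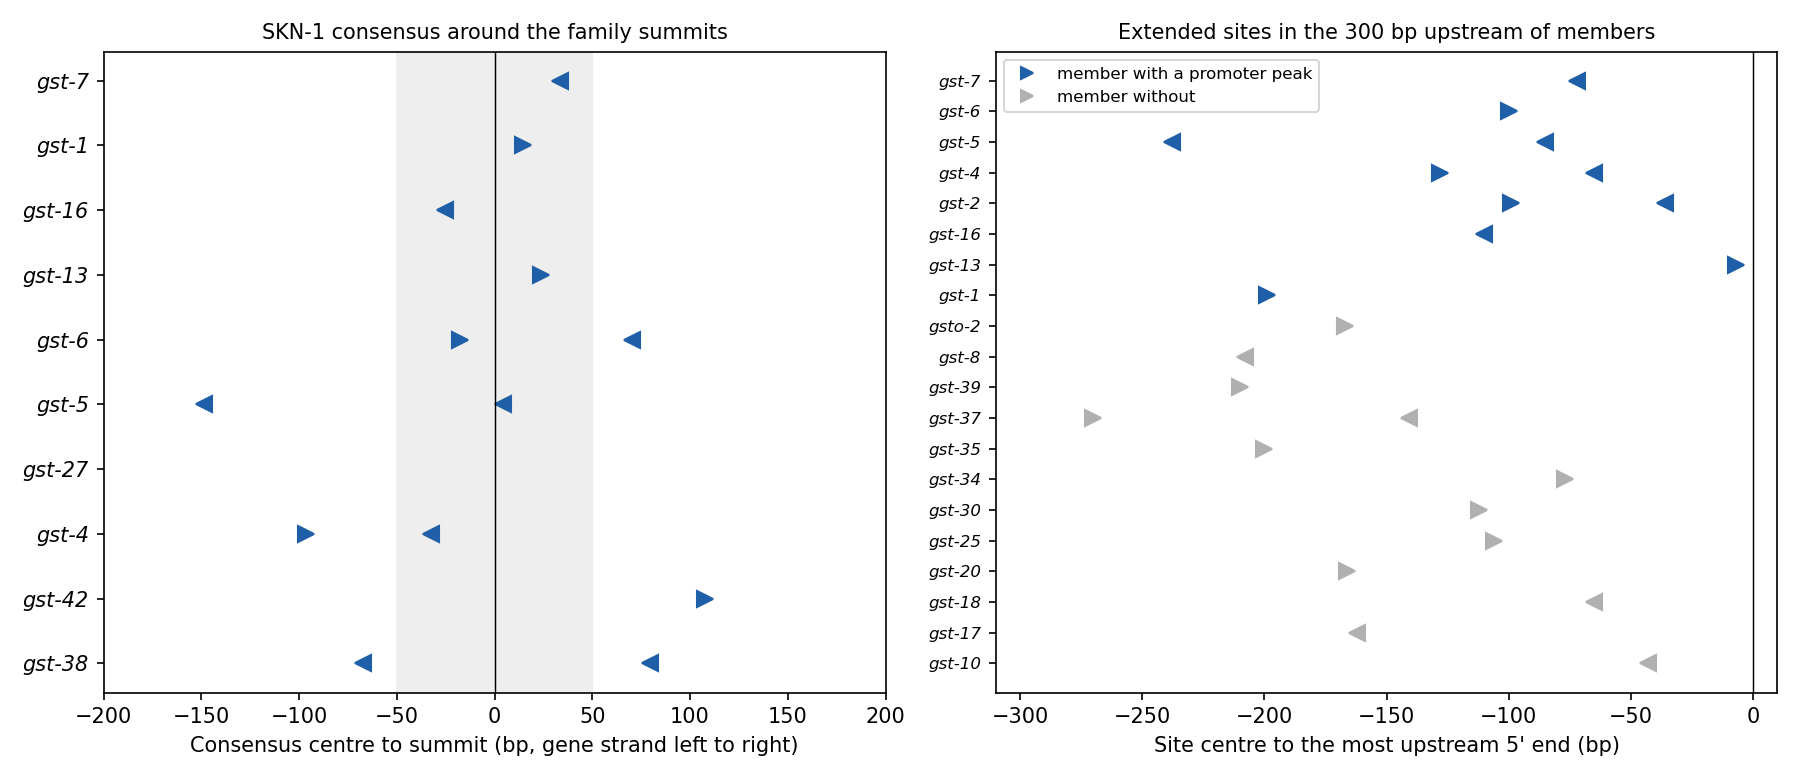
Left, centre of each SKN-1 consensus match relative to the summit (x, bp) for the 10 family summits (y, by leading member), with the 50 bp to either side shaded. Right, centre of each extended site relative to the most upstream 5′ end (x, bp) for the 20 members that have one, blue for bound and grey for unbound. Triangles point right for a match on the strand of the gene. On the left 7 of 10 rows have a match in the shaded part, and on the right blue and grey positions overlap.

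Some other genes that make or use glutathione were bound as well. Of a list of 24, 5 had a promoter peak (background 7.75%). They were glrx-10, a glutaredoxin gene (signal value 129, rank 40), gcs-1, the gene of the enzyme that limits the rate of glutathione synthesis (102, rank 69), and gpx-1, a glutathione peroxidase gene (68.9, rank 183). The remaining ones were gsr-1, the gene of glutathione reductase (37.8, rank 877), and mrp-2, which encodes a transporter of the family that exports conjugates (28.7, rank 1565). Of 8 gpx genes 1 was bound and of 8 mrp genes 1. The second enzyme gene of glutathione synthesis, gss-1, and the glyoxalase gene glod-4 had no promoter peak. The gst-7 and gcs-1 summits were close in rank, at 66 and 69. The gcs-1 summit lay 635 bp upstream, farther than any summit of the family.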

How the data were processed

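ChIP-seq of eGFP-SKN-1 in 2 biological replicates was read from 4 deposited peak lists on ce11, one for each replicate, one pooled and one IDR-thresholded. By the descriptions deposited with the samples, the first 3 hold peaks together with background and used a control alignment. For the aligner, peak caller and IDR threshold, the sources used here give no name or value. The deposited signal value is a score of the authors, of unknown unit, used to rank peaks within a list. The deposited −log10 q-value reaches a ceiling of 3.78 that all 1778 thresholded peaks share, so it was not used for ranking. The ce10 lists were not used here.

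Summits were computed from the deposited offsets. Genes came from Ensembl release 115 and sequence from RefSeq (both WBcel235). Promoter assignment and motif search were tested on simulated data. Proteins were translated from the longest coding sequence and aligned globally (Python 3.11.15, pandas 2.3.3, Biopython 1.88, BLOSUM62, gap penalties 10 and 0.5), and identity is over the shorter protein. Members were named by rule: all bound members, gst-4, gst-7, gst-1, gst-16, gsto-1, the 5 unbound members with the highest pooled values, and genes that share a summit with a member. The members, lists and windows were chosen with earlier results of these data known. Alternatives were other windows, match distances, cluster gaps, the nearest gene, the 889 highest peaks alone and each replicate alone. No test of significance was run.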

Additional observations from a re-analysis of the deposited data

How the results depend on the processing

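The count of 11 bound members was also 11 with a promoter of 500 bp upstream, where 1262 genes in all were bound (6.32%). With the most upstream 5′ end only it was again 11, among 1446 bound genes (7.24%). It was 15 with 2000 bp upstream, where the background count went from 1547 to 2013 genes. With the nearest gene only it was 10, without gst-2, among 1145 bound genes (5.73%). Among the 889 highest thresholded peaks it was 7, also for those matched in both replicates, and 849 genes in all were bound. From each replicate alone it was 9 to 11, on 8 to 11 distinct summits, among 1361 to 1531 bound genes and with 4 to 6 bound members in clusters. With 2000 bp upstream, 10 bound members stood in clusters, with gst-3, gst-8 and gst-26 added through the summits of neighbours and gst-39 through another. With summits matched within 50 bp, 7 members were matched in both replicates. With the consensus within 25 bp of the summit, 4 of the 10 summits had one, and 8 had one within 100 bp. The share over all promoter summits is given here for 50 bp only, so these counts have no background beside them. Of 35 recomputed counts, 29 stayed within 1.5 times the reported one. No paired analysis was possible because there is 1 group. Depth per sample is unknown, and with 2 replicates and no second condition a peak missing at a member cannot be set apart from one below detection.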
